A study of Mus musculus with 9 samples.

Results

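Gene expression in mouse AKP tumour organoids (tumoroids) was compared between 3 samples taken 7 days after Apc was restored and 3 samples in which Apc was silenced, 6 of the 9 samples of the series. The samples were chosen by their titles, and all 12535 genes that passed the expression filter were tested, out of 21253 gene IDs in the table. In the controls doxycycline was kept in the medium, which drives a hairpin against Apc (shAPC in the titles), and in the 7-day group doxycycline had been withdrawn for 7 days. The remaining 3 samples, at 2 days of withdrawal, are used only to place the 7-day values in time. AKP is the labels' name for the line, which all groups share; its alleles and the strain and age of the source animal were not given in the sources used here. Labels call the replicates of this organoid culture technical, so the spread behind each p-value may be technical only. Whether the samples were separate cultures is not stated, and n counts samples, not animals or cultures. Loss of doxycycline, return of Apc and days since withdrawal changed together and cannot be told apart.

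As background, Apc is part of the complex that marks beta-catenin for destruction, and without it beta-catenin with TCF and LEF factors keeps crypt-base genes transcribed. In the normal intestine, cells that leave the crypt lose that signal, stop dividing and mature into absorptive enterocytes or into secretory goblet, Paneth, enteroendocrine and tuft cells. Enterocytes then change their programme again as they climb the villus, from defence genes at its base through sugar and amino acid uptake in its middle to lipid and purine genes at its tip.

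Apc (ENSMUSG00000005871, GRCm38 chromosome 18, 34220924 to 34322552, plus strand) measured 6.80, 6.83 and 8.84 CPM in the controls and 67.9, 69.9 and 92.9 CPM at 7 days, and the groups did not overlap (log2FC 3.36 ± 0.17, edgeR adjusted p = 6.2e-11). Trp53, at 2.78, 3.30 and 2.698 CPM in the controls and 1.08, 1.46 and 0.953 CPM at 7 days, was low in every sample and lower in all 7-day samples (log2FC −1.33 ± 0.20, edgeR adjusted p = 1.7e-05). CPM are counts per 1000000 of the TMM-scaled library total, log2FC is the log2 fold change of 7 days over control with its standard error, and a gene is said to have risen or fallen only where its Benjamini-Hochberg adjusted p in edgeR was under 0.05. The libraries held 24143589 to 32277040 counts, and the 10 most abundant genes took 6.25% to 7.11% of them in the controls and 12.02% to 13.8% at 7 days. Epithelial markers were high in every sample. Epcam, an epithelial adhesion protein, was at 505, 532 and 539 CPM in the controls and 982, 1110.2 and 1062 CPM at 7 days (log2FC 1.00 ± 0.09, edgeR adjusted p = 5.3e-08). The keratin gene Krt8 rose from 3824 to 11860.0 CPM. Cdh1, which encodes E-cadherin, was at 1037, 994 and 935 CPM in the controls and 1176, 1149 and 1113 CPM at 7 days (log2FC 0.21 ± 0.08, edgeR adjusted p = 0.029), but that call was lost when control replicate 2 or 3, or replicate 1 or 2 of the 7-day group, was left out (edgeR adjusted p = 0.0659 to 0.11) and turned to lower under library size alone (log2FC −0.19). Krt18 likewise moved from 2294 to 2928 CPM, and its call was lost without the same libraries (edgeR adjusted p = 0.0563 to 0.141) and under library size alone (log2FC −0.06). In bulk RNA a lower share of cells of a type and less RNA per cell cannot be told apart.

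Most genes tested differed between the groups. Of 12535 genes tested, 5080 rose (40.5%) and 5237 fell (41.8%), so 82.3% were called, and the values of the groups did not overlap for 10315 genes (82.3%). Large changes were mostly upward: 795 genes rose and 138 fell by more than 8-fold, and 208 against 14 by more than 100-fold. The 8-fold counts were 675 and 215 under library size alone. Counts in the lists below are to be read against these shares. The balance of rises and falls depended on the scaling. Scaling by library size alone gave 3675 higher and 6876 lower, and factors from ribosomal protein genes gave 5974 higher and 3709 lower. Under library size the log2FC of all genes shifted by a median of −0.40 relative to TMM, and under the ribosomal factors by 0.29. The direction was called alike under all 6 scalings for 3675 risers and 3709 fallers, 58.9% of the genes tested, while 625 genes (4.99%) were called opposite ways by different scalings. Of genes past 2-fold under TMM, 2781 of 2794 risers and 2419 of 2451 fallers were called in that direction under all 6. Median shifts of −0.40 and 0.29 cannot by themselves turn a 2-fold change around, so that agreement was largely fixed in advance. The size of the changes was not as stable. Over 2-fold there were 2086 risers and 3811 fallers under library size and 3543 and 1667 under the ribosomal factors.

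**Figure D1:**
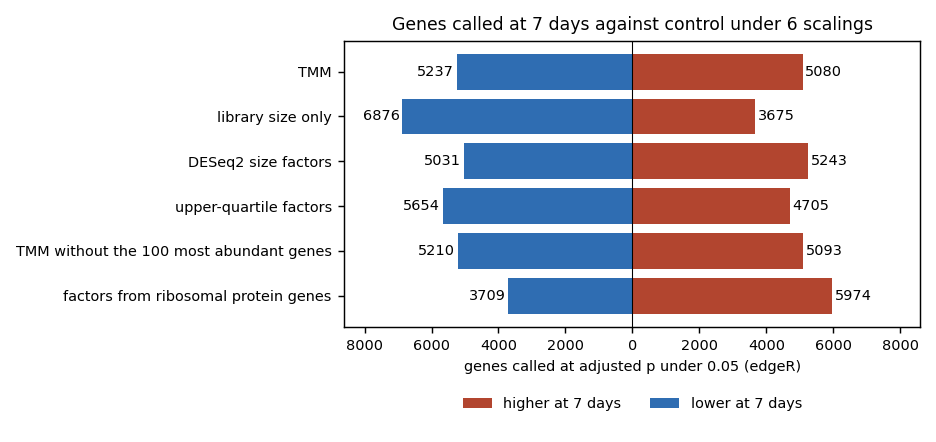
Number of genes called higher (red, right) and lower (blue, left) at 7 days against control by edgeR under each of 6 scalings. The split runs from 3675 higher and 6876 lower with library size alone to 5974 higher and 3709 lower with factors from ribosomal protein genes.

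Genes that beta-catenin activates fell as a group. Of 22 Wnt targets listed, 16 passed the filter and all 16 of those fell, with a median log2FC of −2.45 against −0.03 for all genes tested, and all 16 fell under each of the 6 scalings. Axin2 (ENSMUSG00000000142, GRCm38 chromosome 11, 108920349 to 108950783, plus strand), which encodes a scaffold of the same destruction complex and a feedback target of the pathway, was at 65.1, 71.3 and 75.1 CPM in the controls and 0.563, 0.751 and 0.660 CPM at 7 days (log2FC −6.73 ± 0.13, edgeR adjusted p = 1.5e-15). Every 7-day sample lay below 1 CPM and every control above 60 CPM. Tnfrsf19, a receptor of crypt-base cells, was at 109, 109 and 114 CPM in the controls and 0.0433, 0.0376 and 0.0733 CPM at 7 days and fell further than any other gene under the rule for named genes (log2FC −10.94 ± 0.19, edgeR adjusted p = 4.1e-16). Sp5 and Tcf7, transcription factors that act in the pathway itself, fell from 25.7 to 0.373 CPM and from 73.1 to 2.93 CPM. The oncogene Myc fell less, at 207, 217 and 187 CPM in the controls and 94.4, 82.7 and 79.03 CPM at 7 days (log2FC −1.25 ± 0.09, edgeR adjusted p = 2.7e-09), and the cyclin gene Ccnd1 fell from 900.0 to 376 CPM. The 6 listed targets below the filter were low in the controls too, such as Nkd1 with 31 counts over the controls and 0 at 7 days.

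Stem cell markers of the crypt base went the same way, 14 of the 15 tested (18 listed), with Rgmb the exception at 9.34 and 10.1 CPM. Lgr5, an R-spondin receptor of crypt-base cells, was at 13.02, 15.4 and 16.4 CPM in the controls and 0.995, 0.601 and 1.06 CPM at 7 days (log2FC −4.08 ± 0.17, edgeR adjusted p = 7.9e-12). Ascl2, the transcription factor that maintains them, had 1623 counts in the control group and 1 at 7 days, a ratio of 1406 with a 95% counting interval of 252 to 55569.9. The urea transporter gene Slc14a1, on the same list, had 892 counts against 3, a ratio of 258 with a 95% counting interval of 87.9 to 1251. Smoc2 fell less, from 95.6 to 22.6 CPM, and Bmi1 fell from 21.6 to 14.8 CPM. Under the ribosomal factors Rgmb was called higher and Bmi1 lost its call. Of 5 oncofetal genes tested, which encode RNA-binding and chromatin proteins of fetal tissue, 4 fell, including Hmga2 from 24.1 to 5.98 CPM and Igf2bp1 from 22.5 to 6.56 CPM, while Igf2bp2 rose from 76.99 to 121 CPM. The other largest falls under the rule for named genes were Hunk (from 108 to 0.537 CPM), Dpp6 (from 13.8 to 0.0680 CPM), Ptpro (from 7.93 to 0.0617 CPM), Lifr (from 8.80 to 0.129 CPM), Fam222a (from 6.20 to 0.132 CPM), Cdo1 (from 14.99 to 0.378 CPM), Nipal4 (from 7.03 to 0.183 CPM) and Col14a1 (from 5.23 to 0.175 CPM), along with Rgcc, whose 500 and 3 counts give a ratio of 144 with a 95% counting interval of 49.1 to 703.

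**Figure D2:**
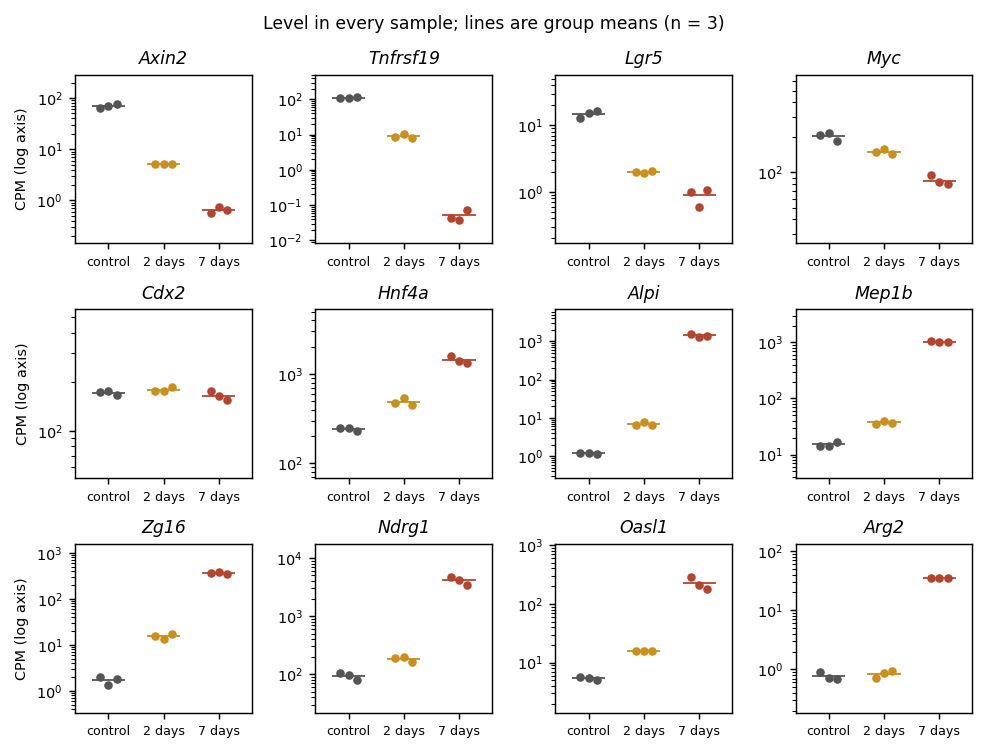
CPM of 12 genes in each of the 9 samples on log axes (grey, control; yellow, 2 days; red, 7 days; lines, means of 3). For Cdx2 the groups overlap, and for the other 11 genes every 7-day sample lies on the same side of every control.

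Transcription factors of intestinal maturation mostly rose. Of 30 tested (32 listed), 23 rose and 5 fell, and 2 of the 30 had fewer than 10 counts over the controls. Cdx2, the caudal factor that sets intestinal fate, was at 173, 175 and 166 CPM in the controls and 175, 164 and 155 CPM at 7 days (log2FC −0.06 ± 0.07, edgeR adjusted p = 0.46); it was called lower under library size and upper-quartile scaling and higher under the ribosomal factors. Hnf4a, a nuclear receptor that drives enterocyte genes, was at 252, 247 and 227 CPM in the controls and 1598, 1409 and 1342 CPM at 7 days, with no overlap (log2FC 2.58 ± 0.10, edgeR adjusted p = 3.7e-12). Its close relative Hnf4g went from 3.44 to 97.9 CPM, again a rise (log2FC 4.83 ± 0.17, edgeR adjusted p = 7.3e-13). The greatest rise on the list was that of Creb3l3, a membrane-bound factor of lipid handling, from 0.265 to 192 CPM (log2FC 9.51 ± 0.17, edgeR adjusted p = 8.1e-16). Ppara, a fatty acid sensor, and Nr1i2, the xenobiotic sensor PXR, rose from 0.108 to 8.88 CPM and from 0.515 to 34.1 CPM. Klf4, a zinc finger factor of cells that have left the cycle, was at 53.2, 61.99 and 63.6 CPM in the controls and 181, 171 and 187 CPM at 7 days (log2FC 1.59 ± 0.09, edgeR adjusted p = 1.8e-10). The fallers included the forkhead factors Foxa1, Foxa2 and Foxa3 and the ETS factor Ehf, and Foxa1 and Foxa3 lost that call under the ribosomal factors.

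The 250 bases before the transcription start of 6 of the named genes are shown, from RefSeq (GRCm38.p6), 5′ to 3′ on the gene's strand. Risers come first and Wnt or stem cell genes after them. Capitals mark a match to 1 of 4 motifs searched on both strands: CTTTGAT for TCF/LEF, CAAAGTCCA for HNF4, TTTATGG for CDX and GGGTGTGG for KLF.
Apoa4 (chr9:46240594-46240843, plus strand): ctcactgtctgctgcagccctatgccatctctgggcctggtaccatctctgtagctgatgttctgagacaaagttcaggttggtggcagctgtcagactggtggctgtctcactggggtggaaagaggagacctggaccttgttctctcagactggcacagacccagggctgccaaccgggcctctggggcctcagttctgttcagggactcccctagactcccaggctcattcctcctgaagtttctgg
Sis (chr3:72967864-72968113, minus strand): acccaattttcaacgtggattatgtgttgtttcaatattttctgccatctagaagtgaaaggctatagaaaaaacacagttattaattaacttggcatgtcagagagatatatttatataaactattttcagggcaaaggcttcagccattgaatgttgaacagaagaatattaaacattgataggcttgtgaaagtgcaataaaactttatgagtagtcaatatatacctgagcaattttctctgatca
Alpi (chr1:87101607-87101856, minus strand): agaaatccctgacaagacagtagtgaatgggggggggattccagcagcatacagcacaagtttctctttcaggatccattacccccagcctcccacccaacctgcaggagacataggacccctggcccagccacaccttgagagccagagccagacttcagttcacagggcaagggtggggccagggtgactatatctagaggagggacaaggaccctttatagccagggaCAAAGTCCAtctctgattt
Axin2 (chr11:108920099-108920348, plus strand): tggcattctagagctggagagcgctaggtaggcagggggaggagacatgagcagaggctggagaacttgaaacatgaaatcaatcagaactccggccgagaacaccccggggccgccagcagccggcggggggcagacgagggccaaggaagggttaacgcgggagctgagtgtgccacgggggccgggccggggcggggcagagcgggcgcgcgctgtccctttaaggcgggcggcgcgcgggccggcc
Ascl2 (chr7:142969265-142969514, minus strand): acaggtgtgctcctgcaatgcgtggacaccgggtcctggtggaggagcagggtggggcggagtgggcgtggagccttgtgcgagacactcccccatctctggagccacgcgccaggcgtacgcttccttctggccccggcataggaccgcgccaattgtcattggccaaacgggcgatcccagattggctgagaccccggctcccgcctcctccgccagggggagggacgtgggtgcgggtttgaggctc
Tnfrsf19 (chr14:61046856-61047105, minus strand): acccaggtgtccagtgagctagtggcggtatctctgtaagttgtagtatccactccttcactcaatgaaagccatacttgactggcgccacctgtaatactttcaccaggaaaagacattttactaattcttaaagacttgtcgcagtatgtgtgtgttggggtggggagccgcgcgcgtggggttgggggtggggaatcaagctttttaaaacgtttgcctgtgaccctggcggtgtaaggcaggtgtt
Tnfrsf19 (chr14:61037988-61038237, minus strand): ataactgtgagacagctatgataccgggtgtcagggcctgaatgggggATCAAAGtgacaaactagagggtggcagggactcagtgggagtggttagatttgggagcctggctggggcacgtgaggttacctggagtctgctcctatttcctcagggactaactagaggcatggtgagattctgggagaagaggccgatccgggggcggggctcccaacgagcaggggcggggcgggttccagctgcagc
The window of Alpi held the HNF4 letters 19 bases before its start, and the second window of Tnfrsf19 held the TCF/LEF letters 202 bases before. The other windows held none of the 4 motifs. In CG steps the sets differ to the eye: Apoa4, Sis and Alpi had 1, 1 and 0, and Axin2, Ascl2 and the Tnfrsf19 windows had 24, 19, 9 and 8.

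Across the genes with a promoter in the table, large risers had the fewest CG steps, and large fallers also had fewer than all tested genes. Among 9866 tested genes matched by symbol, the median number of CG steps in the 250 bases before the start was 16, and 11.9% of genes had fewer than 5. Among the 622 matched genes that rose over 8-fold the median was 5, and 49.8% had fewer than 5. Among the 102 that fell over 8-fold it was 10.5, and 24.5% had fewer than 5. Over 2-fold the medians were 10 for risers and 17 for fallers, with 26.4% and 9.35% of genes having fewer than 5. The HNF4 letters stood in 0.639% of the windows of all tested genes (250 bases before to 50 after the start) and in 0.475% of all 32851 windows. They stood in 21 of the 622 large risers (3.38%) and in 1 of the 102 large fallers. For comparison the TCF/LEF letters stood in 3.07% of all tested genes, 3.70% of large risers and 8 of 102 large fallers (7.84%). The CDX letters stood in 2.06%, 4.02% and 2.94%, and the KLF letters in 4.68%, 7.40% and 5.88%, of the same sets. A match is a description of letters and not a site. The 21 include 5 related Cyp2c genes of chromosome 19 with similar windows, so they are not independent. For 5 of those with the match before the start, chosen after their values were seen to span several functions, 39 bases around it are shown with the HNF4 letters in capitals on either strand: Treh (trehalase), Slc3a1 (cystine and basic amino acid uptake), Cyp2c40 and Cyp2c65 (detoxification) and Trim31 (a ubiquitin ligase).
Treh (chr9:44673147-44673185, plus strand): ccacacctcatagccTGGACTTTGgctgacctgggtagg
Slc3a1 (chr17:85028293-85028331, plus strand): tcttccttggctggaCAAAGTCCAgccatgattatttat
Cyp2c40 (chr19:39812836-39812874, minus strand): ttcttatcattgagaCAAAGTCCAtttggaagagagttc
Cyp2c65 (chr19:39060875-39060913, plus strand): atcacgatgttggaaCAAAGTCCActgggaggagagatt
Trim31 (chr17:36897985-36898023, plus strand): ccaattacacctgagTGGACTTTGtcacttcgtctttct
Treh and Cyp2c40 had 0 counts in the controls and 37.6 and 12.2 CPM at 7 days. Slc3a1 rose from 0.201 to 122 CPM, Cyp2c65 from 0.866 to 223 CPM and Trim31 from 0.875 to 103 CPM.

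Digestive enzymes of the brush border rose without exception among those tested. Of 24 listed, 21 passed the filter and 21 rose, 7 of them with fewer than 10 counts over the controls, which therefore passed the filter through the 7-day samples; the other 3 were below it. Sis, sucrase-isomaltase, was at 0.309, 0.143 and 0.426 CPM in the controls and 761, 876 and 1043 CPM at 7 days (log2FC 11.61 ± 0.23, edgeR adjusted p = 1.6e-15). Alpi, the intestinal alkaline phosphatase, was at 1.197, 1.23 and 1.17 CPM in the controls and 1590.4, 1291 and 1411 CPM at 7 days (log2FC 10.21 ± 0.15, edgeR adjusted p = 9.2e-17). These were near-silent genes that became abundant in every 7-day sample. The peptidase genes Anpep and Mep1b rose from 0.751 to 791 CPM and from 15.1 to 1031 CPM, the latter from a clear level in controls. Treh had 0 counts in the controls and was at least 1114-fold higher at 7 days, set against 3 counts over the group. Enpp7, alkaline sphingomyelinase, was at least 227-fold higher on the same basis. Lct, lactase, stayed scarce, from 0.152 to 1.49 CPM.

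Chylomicron assembly followed, 23 of 24 tested genes up (28 listed) with a median log2FC of 5.57. Of the 24, 2 had fewer than 10 counts over the controls and therefore passed the filter through the 7-day samples. Apoa4, an apolipoprotein of the villus tip, was at 0.541, 0.402 and 0.355 CPM in the controls and 2299.9, 2218 and 2232 CPM at 7 days (log2FC 12.35 ± 0.15, edgeR adjusted p = 6.7e-17). Fabp1, which binds fatty acids in the cytosol, had 3 counts in the control group and 2259 at 7 days, a ratio of 869 with a 95% counting interval of 297 to 4218. Apoc3 had 1 and 14534, a ratio of 16776 with a 95% counting interval of 3011 to 662682. Both carry the uncertainty of a nearly empty control group. Apob, the structural protein of the particle, rose from 78.3 to 2024 CPM, and Npc1l1, the cholesterol uptake channel, from 0.798 to 562 CPM. Scarb1, a lipoprotein receptor, was the member that fell, from 77.8 to 46.7 CPM.

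Carriers for sugars, peptides, amino acids, bile acids and metals rose in 25 of 25 tested genes (28 listed), 10 of which had fewer than 10 counts over the controls. Slc5a1 and Slc2a2, which carry glucose in at the brush border and out at the base, rose from 0.298 to 75.8 CPM and from 0.153 to 58.9 CPM. Slc13a1, a sulfate carrier, was at 0 in the controls and 42.4, 46.5 and 46.6 CPM at 7 days, at least 1338-fold higher. Slc51b, a subunit of the bile acid exporter, went from 0 to 4.77 CPM. Under library size 24 of these were called. For ions and water 15 of 19 tested genes rose and 2 fell (23 listed). Of the 19, 3 had fewer than 10 counts over the controls. Slc26a3, the chloride-bicarbonate exchanger, rose from 0.178 to 41.7 CPM, and Guca2b, the peptide uroguanylin, from 0.139 to 88.9 CPM. Slc12a2, the chloride importer of secreting crypt cells, fell from 148 to 47.03 CPM. Cftr and the sodium exchanger gene Slc9a3 did not pass, at 44.6 and 51.3 CPM and 1.27 and 0.945 CPM.

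As a list, the cytoskeleton of the brush border was already expressed in the controls, summing to 3412 to 3912 CPM, and rose further. All 22 microvillus genes listed were tested and rose, with a median log2FC of 2.04, and 1 of them had fewer than 10 counts over the controls. Vil1, the actin bundler villin, was at 497, 489 and 404 CPM in the controls and 1937, 1715 and 1476 CPM at 7 days (log2FC 1.88 ± 0.12, edgeR adjusted p = 6.4e-10). Myo1a, the myosin that ties the bundle to the membrane, rose from 10.3 to 1151 CPM, and the intermicrovillar link genes Cdhr5 and Ush1c from 52.7 to 983 CPM and from 11.8 to 297 CPM. Claudins of the tight junction rose in 7 of 8 tested genes (6, with 1 lower, under library size), Cldn15 most, from 4.52 to 251 CPM. Junction and desmosome genes rose in 17 of 20, with Cdh17, the intestinal cadherin, from 685 to 2047 CPM, and fell in the case of Cdh2, N-cadherin, from 1.86 to 0.422 CPM; under library size these counts were 12 and 4. Simple-epithelium keratins rose in 6 of 6, or 4 of 6 under library size. Krt20, a keratin of shed and villus cells, was at 4.21, 2.41 and 2.24 CPM in the controls and 1135, 1104 and 1086 CPM at 7 days (log2FC 8.57 ± 0.17, edgeR adjusted p = 2.2e-15).

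The lists of villus base and middle markers had higher median changes than the tip list, whose members differed widely. The base list rose in 11 of 11 tested with a median log2FC of 5.89 (5.08 with the gene at 0 control counts set at its bound), the middle list in 12 of 12 with a median of 7.68, and the tip list in 11 of 12 with a median of 1.82 (10 higher and 2 lower under library size). Fewer than 10 counts over the controls were seen for 4 base, 4 middle and 1 tip member, which passed the filter through the 7-day samples and could only rise. The differences between these medians were not tested. The tip list holds Apoa4 (log2FC 12.35) and Creb3l3 (log2FC 9.51). It also holds genes well expressed in the controls, such as Cdh1 (989 CPM, log2FC 0.21) and Junb (109 CPM, log2FC 1.26). Its median is therefore no measure of tip enterocyte genes alone. At the base Nlrp6, an inflammasome sensor, rose from 6.69 to 398 CPM, Ccl25, a lymphocyte-homing chemokine, from 5.48 to 108 CPM, and Reg1 had 2 and 2203 counts, a ratio of 1271 with a 95% counting interval of 352 to 10505. In the middle Slc15a1, the peptide carrier, rose from 0.0590 to 16.4 CPM. At the tip Enpep, aminopeptidase A, rose from 0.289 to 143 CPM, whereas Ada, adenosine deaminase, rose from 21.5 to 34.2 CPM. Slc28a2, a nucleoside carrier, rose from 0 counts to 0.586 CPM, at least 17.4-fold, and Nt5e was below the filter with 3 and 16 counts. Ifrd1, the tip marker that fell, went from 103 to 66.4 CPM. Of regional markers 13 of 13 small-intestinal, 11 of 12 colonic and 8 of 9 gastric genes tested rose, but 2, 6 and 3 of these members had fewer than 10 counts over the controls and could enter the test only through the 7-day samples. Adh6a of the small intestine rose from 0.315 to 511 CPM. Lypd8, a colonic protein that binds flagella, rose from 2.83 to 1807 CPM. Ms4a8a had 3 and 2465 counts, a ratio of 948 with a 95% counting interval of 324 to 4602, but Car1, Scnn1b and Scnn1g of the distal colon had 0 or 1 count in either group. Of the gastric genes Tff1, a trefoil peptide of the stomach surface, rose from 0.287 to 56.3 CPM, Gkn2, a gastrokine, from 0.0781 to 11.4 CPM and Anxa10 from 1.62 to 59.1 CPM, whereas Sox2 had 0 counts. The gastric list summed to 10.99 to 12.9 CPM in controls and 200.1 to 201.3 CPM at 7 days. For the small-intestinal list the values were 374 to 392 CPM in controls and 13119.8 to 13899 CPM at 7 days. For the colonic list they were 1030 to 1093 CPM in controls and 3594 to 4475 CPM at 7 days.

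Of the secretory types, goblet genes mostly rose, tuft genes mostly fell, and Paneth genes went both ways. Goblet markers rose in 16 of 18 tested (20 listed), 1 of the 18 having fewer than 10 counts over the controls. Fcgbp, which binds mucus, rose from 18.9 to 2211 CPM, Tff3, the trefoil peptide of goblet cells, from 10.9 to 910.0 CPM, and Zg16, a mucus lectin, from 1.70 to 360.0 CPM. Atoh1, the factor that commits cells to secretory fates, was at 0.772, 0.660 and 0.533 CPM in the controls and 3.72, 3.91 and 3.70 CPM at 7 days (log2FC 2.52 ± 0.17, edgeR adjusted p = 2.1e-09). It stayed below 4 CPM in every 7-day sample. Paneth markers fell in 5 of 8 tested and rose in 3 (17 listed). Lyz1, lysozyme, was at 1.197, 1.03 and 1.28 CPM in the controls and 0.476, 0.376 and 0.330 CPM at 7 days (log2FC −1.56 ± 0.30, edgeR adjusted p = 0.00017). Mmp7, the protease that activates defensins, fell from 4.32 to 0.234 CPM, and Pla2g2a, a secreted phospholipase, fell from 5.72, 7.06 and 7.14 CPM to 0 counts, at least 170.4-fold lower. The risers Nupr1, Clps and Gfi1 are also expressed by other cells; Nupr1, a stress gene, stood at 86.7 CPM at 7 days. Enteroendocrine markers were tested in 4 of 23 cases, of which Sct and Nts rose to 4.52 and 1.46 CPM and Isl1 fell to 0.142 CPM. The Nts call was lost under library size and without control replicate 1 (edgeR adjusted p = 0.0662). The Isl1 call was lost under 2 of the 6 scalings and without any 1 of 6 libraries (2-day replicates 1 and 3, 7-day 1 and 2, control 1 and 2; edgeR adjusted p = 0.0503 to 0.172). Chga, the granule protein, had 0 counts in the controls and 7 at 7 days and was not tested. Tuft markers fell in 4 of 5 tested (18 listed, 13 below the filter), and the list summed to 146.6 to 164 CPM in controls and 46.8 to 53.3 CPM at 7 days. Most of each sum was Ptgs1, which fell from 133 to 35.2 CPM. Pou2f3, the master factor of tuft cells, fell from 0.605 to 0.0927 CPM, and Dclk1 had 19 and 2 counts. The riser was Avil (log2FC 0.49, edgeR adjusted p = 0.047). Its call was lost under library size and without any 1 of 5 libraries (edgeR adjusted p = 0.052 to 0.245). Of 6 M cell genes tested 4 rose and 1 fell. Serpinb1a rose from 159 to 1401 CPM, but Gp2 had 0 counts in both groups.

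**Figure D3:**
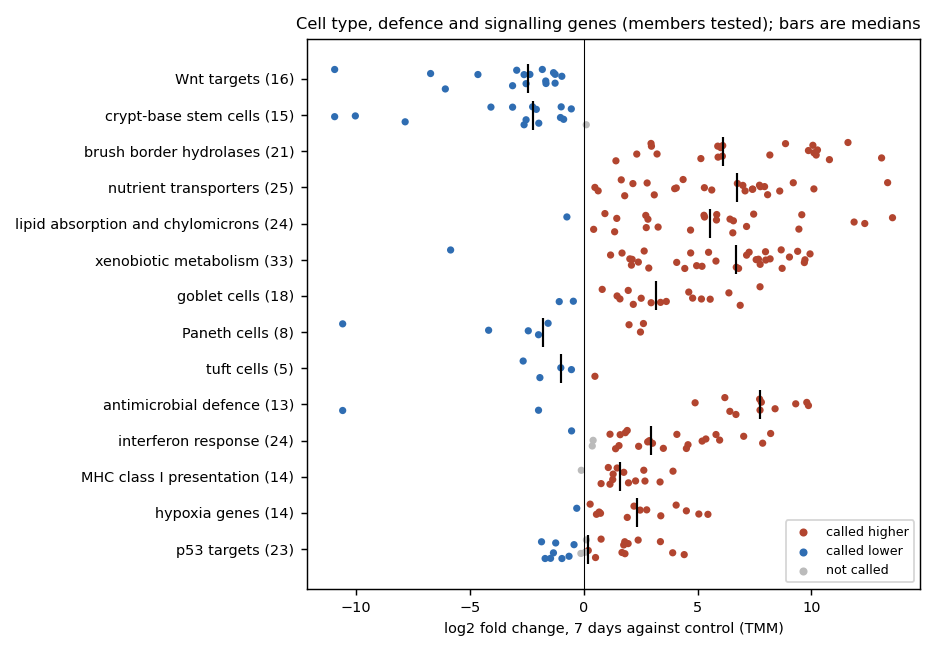
Log2 fold change of each tested member of 14 lists at 7 days against control (points; red, called higher; blue, called lower; grey, not called) with the list median as a black bar. The hydrolase, nutrient, chylomicron, xenobiotic and antimicrobial lists centre between 5.57 and 7.73 (antimicrobial, 6.69 with genes at 0 counts in 1 group set at their bound), Wnt targets at −2.45, and p53 targets spread to both sides of 0.

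Detoxification genes rose nearly throughout. Of 33 xenobiotic genes tested (34 listed), 32 rose under every scaling named here, and the list summed to 1328 to 1369 CPM in controls and 21662 to 23924 CPM at 7 days. Gsta1 and Gsta4, glutathione transferases, rose from 182 to 8166 CPM and from 346 to 5870.0 CPM; Gsta1 has a near-identical copy and its count is uncertain. Ces2c and Ces2e, carboxylesterases, rose from 0.576 to 549 CPM and from 0.373 to 302 CPM. Sult1d1, a sulfotransferase, rose from 0.0887 to 79.3 CPM, and Abcc2, a conjugate exporter, from 0.345 to 139.9 CPM. Cyp1b1 alone among those tested fell, with 88 and 1 counts, a ratio of 76.2 with a 95% counting interval of 13.3 to 3045. Of the members tested 4 had fewer than 10 counts over the controls. Retinoid genes rose in 12 of 13 tested, 1 of the 13 having fewer than 10 counts over the controls. Rbp2, the carrier of retinol in enterocytes, rose from 0.479 to 629 CPM and Rdh7 from 0.156 to 73.04 CPM, whereas Stra6, the receptor that takes up retinol from plasma, fell from 4.35 to 0.303 CPM. Metal genes rose in 12 of 15, 1 of the 15 having fewer than 10 counts over the controls. Slc39a5, a basal zinc importer, rose from 0.446 to 18.97 CPM, and Tfrc, the transferrin receptor of dividing cells, fell from 215 to 87.8 CPM. Among antioxidant genes 17 of 23 rose and 3 fell (12 and 6 under library size). Catalase, Cat, rose from 39.4 to 189 CPM, while Gpx2, a crypt glutathione peroxidase, fell from 659 to 73.4 CPM.

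Division genes fell almost without exception and did so under all 6 scalings. All 36 mitosis genes fell, with a median log2FC of −1.70, and 35 of 36 replication genes, with a median of −1.92. Mki67 was at 323, 319 and 328 CPM in the controls and 140.1, 131 and 157 CPM at 7 days (log2FC −1.18 ± 0.15, edgeR adjusted p = 2.5e-06), so the marker remained well above 0 in every 7-day sample. Mcm2 and Mcm5, subunits of the replicative helicase, fell from 341 to 60.1 CPM and from 524 to 94.6 CPM. Uhrf1, which copies DNA methylation at forks, fell from 297 to 43.1 CPM, and Mybl2, a factor of late-cycle genes, from 256 to 44.4 CPM. E2f2, listed with replication, rose against this trend at 33.3, 32.9 and 30.4 CPM in the controls and 81.7, 75.1 and 71.6 CPM at 7 days (log2FC 1.24 ± 0.08, edgeR adjusted p = 2e-09), while its relatives E2f1, E2f7 and E2f8 fell, E2f1 from 33.7 to 7.15 CPM and E2f7 from 40.4 to 7.36 CPM. Brakes on the cycle did not all move one way. Cdkn2b and Cdkn1a, inhibitors of cyclin-dependent kinases, rose from 12.2 to 157 CPM and from 20.5 to 211 CPM, and Cdkn2a from 132 to 412 CPM, but Cdkn1b, p27, did not pass, at 60.03 and 60.5 CPM and Cdkn1c fell from 5.39 to 2.30 CPM. Mxd1 and Mxd4, which compete with Myc for its partner Max, rose from 13.7 to 327 CPM and from 6.98 to 80.8 CPM.

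The machinery that builds ribosomes fell under every scaling, while the size of the change in ribosomal protein genes themselves depended on the scaling. All 35 ribosome biogenesis genes fell under all 6 scalings, with a median log2FC of −1.79. Ncl and Npm1, nucleolar proteins, fell from 1589 to 459 CPM and from 1288 to 332 CPM, and Polr1b, a subunit of RNA polymerase I, from 151 to 37.5 CPM. Nop16 fell most, from 96.96 to 14.3 CPM. Of 80 ribosomal protein genes tested, 50 fell and 2 rose under TMM, at a median of −0.31. The split followed the scaling: 78 fell and 0 rose under library size, at a median of −0.71. With factors taken from these genes, which hold their total level by construction, 17 fell and 16 rose, at a median of −0.02. The list took 6.92% to 7.06% of all counts in the controls and 4.25% to 4.46% at 7 days. Rplp0, a stalk protein, was at 3727 and 3861 CPM, and Rpl13a fell from 92.5 to 37.7 CPM; pseudogene copies make single members uncertain. All 28 splicing factors fell under TMM and library size, 26 under the ribosomal factors, with Srsf7 from 232 to 58.97 CPM and Hnrnpa1 from 1048 to 272 CPM. Of 21 translation factors 15 fell and 0 rose (10 and 2 under the ribosomal factors), Eif4e, the cap-binding protein, from 198 to 87.5 CPM. Nucleotide synthesis fell in 25 of 26 genes, led by Ctps, which makes CTP, from 206 to 43.9 CPM, and Gart of purine synthesis from 355 to 82.4 CPM; Adss rose from 226 to 288 CPM, but was not called under library size.

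**Figure D4:**
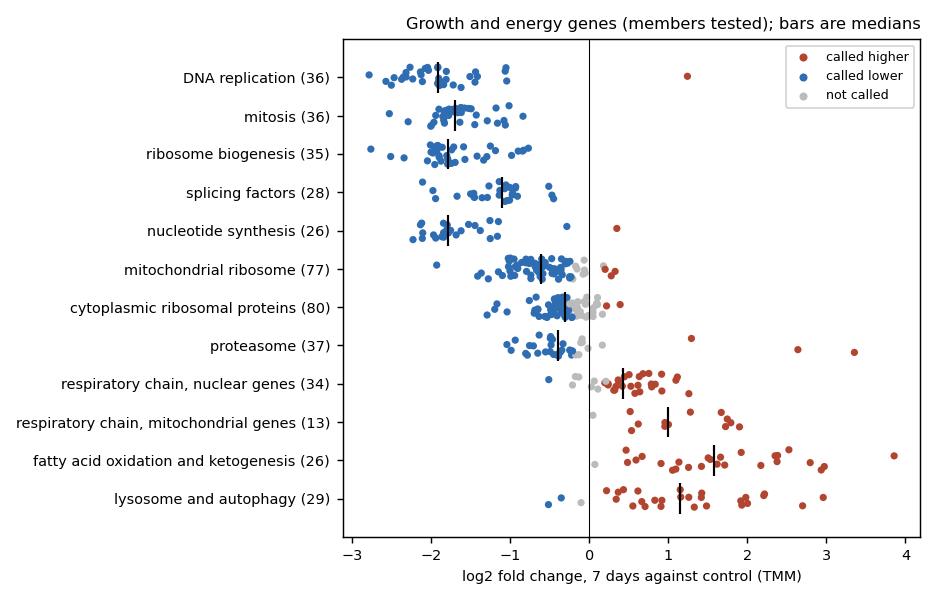
Log2 fold change of each tested member of 12 growth, energy and turnover lists at 7 days against control (points coloured by call as named in the key; black bars, medians). The medians run from −1.92 for DNA replication to 1.57 for fatty acid oxidation, with ribosomal proteins at −0.31.

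Fat oxidation genes rose, and mitochondrial genes split by role. Fatty acid oxidation genes rose in 25 of 26 tested, Ehhadh of the peroxisome from 8.76 to 127 CPM and Cpt1a, the gate into mitochondria, from 27.4 to 190.2 CPM. Of 13 genes encoded by the mitochondrial genome 12 rose (9 under library size), such as mt-Nd4 at 345, 441 and 555 CPM in the controls and 1473, 1551 and 1982 CPM at 7 days (log2FC 1.90 ± 0.17, edgeR adjusted p = 4.1e-08). Nuclear genes of the respiratory chain rose in 26 of 34 with 1 lower, but 13 rose and 10 fell under library size, so their direction as a list depends on the scaling. Mitochondrial ribosomal proteins fell in 66 of 77 with 3 higher, Mrps27 from 75.4 to 19.8 CPM. For that list 45 fell and 5 rose under the ribosomal factors, and 75 fell and 0 rose under library size. Mitochondrial chaperones and proteases fell in 8 of 14 and rose in 2 (6 and 4 under the ribosomal factors). Among them Hspd1 fell from 993 to 363 CPM and Hspe1 from 271 to 84.9 CPM. In sugar metabolism 19 of 23 rose. Khk, which phosphorylates fructose, rose from 6.56 to 209 CPM, and G6pc, glucose-6-phosphatase, went from 0 counts to 8.01, 6.38 and 5.98 CPM. Hk2, the hexokinase of growing cells, fell from 87.7 to 55.7 CPM, and Pck1 and Fbp1 of gluconeogenesis had 9 counts or fewer. Sterol and fatty acid synthesis rose in 22 of 29 and fell in 7 (15 and 7 under library size, 22 and 2 under the ribosomal factors), with Insig1 from 131 to 648 CPM and Scd1 from 370.5 to 1595 CPM up and Acaca, acetyl-CoA carboxylase, down from 189 to 111 CPM.

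Amino acid genes divided. Urea cycle enzymes Otc and Cps1 rose from 0.0814 to 67.2 CPM and from 0.0544 to 4.69 CPM, and Arg2 rose from 0.760 to 35.4 CPM, whereas Ass1, which joins citrulline to aspartate, fell from 39.6 to 4.62 CPM. Odc1 and Srm of polyamine synthesis fell from 1124 to 316 CPM and from 309 to 53.4 CPM. On the list of serine synthesis and ATF4 targets, Psat1 of serine synthesis fell from 677 to 130.2 CPM and the amino acid carrier gene Slc7a5 from 355 to 66.7 CPM. The stress members Ddit3 and Trib3 of that list rose from 2.38 to 19.02 CPM and from 13.97 to 58.1 CPM. In all 9 of its 24 genes rose and 11 fell, against 8 of 18 and 9 for the polyamine and urea cycle list. Of those 18, 2 had fewer than 10 counts over the controls and could enter the test only through the 7-day samples. Both lists have a median near 0 whose sign turned under the ribosomal factors.

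Genes of the lysosome mostly rose and genes of the proteasome mostly fell. Lysosome and autophagy genes rose in 26 of 29 tested and fell in 2 (20 and 3 under library size). Lipa, lysosomal acid lipase, rose from 21.7 to 169 CPM and the autophagy receptor gene Sqstm1 from 152 to 707 CPM. Proteasome genes fell in 27 of 37, Psma2 from 166 to 80.7 CPM, and the 3 that rose were the immunoproteasome subunits Psmb8, Psmb9 and Psmb10, the last at 24.8, 24.3 and 20.98 CPM in the controls and 66.4, 58.02 and 47.3 CPM at 7 days (log2FC 1.29 ± 0.12, edgeR adjusted p = 9.4e-08). With ribosomal factors 11 proteasome genes fell and 4 rose. Of the 37 tested, 1 had fewer than 10 counts over the controls. The unfolded protein response rose in 11 of 22 and fell in 5 (9 and 10 under library size), with Dnajb9 from 5.98 to 33.8 CPM and Xbp1 from 64.7 to 173 CPM up and Creld2 from 65.1 to 36.04 CPM down.

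Defence genes that epithelium itself expresses rose. Of 13 antimicrobial genes tested (23 listed), 11 rose, 6 of the 13 having fewer than 10 counts over the controls. Dmbt1, a secreted scavenger protein, was at 3.24, 5.31 and 5.08 CPM in the controls and 4185, 4128 and 3954 CPM at 7 days (log2FC 9.80 ± 0.19, edgeR adjusted p = 1.6e-15). Nos2, inducible nitric oxide synthase, rose from 0.0804 to 77.9 CPM, and Pigr, which carries antibody across the epithelium, from 3.02 to 312 CPM. Duox2 had 2 counts over the controls and 436 at 7 days, a ratio of 252 with a 95% counting interval of 69.2 to 2084. Lcn2 and the serum amyloid genes Saa1 and Saa3 stayed below the filter, at 34 counts or fewer. Interferon-response genes rose in 21 of 24, 3 of them with fewer than 10 counts over the controls. Irf7, the factor that amplifies the response, was at 2.47, 2.18 and 1.85 CPM in the controls and 178, 107 and 80.4 CPM at 7 days (log2FC 5.81 ± 0.27, edgeR adjusted p = 2.4e-11). Oasl1, an oligoadenylate synthetase-like gene, was at 5.60, 5.57 and 5.15 CPM in the controls and 281, 213 and 180.0 CPM at 7 days. Ifit1, which binds foreign RNA, was at 0.193, 0.172 and 0.142 CPM in the controls and 29.1, 14.9 and 23.8 CPM at 7 days. The summed list ran from 625 to 1047 CPM among the 7-day samples against 102.6 to 105.6 CPM in controls, a wider spread than the controls showed. Bst2 fell from 19.7 to 13.7 CPM, a call lost under the ribosomal factors, and Cxcl10 did not pass (0.964 and 1.42 CPM). Antigen presentation on MHC class I rose in 13 of 14, 1 of the 14 having fewer than 10 counts over the controls. B2m, the class I light chain, rose from 79.3 to 310.0 CPM and the peptide transporter gene Tap1 from 0.601 to 9.46 CPM. Of 8 class II genes 2 were tested and both rose, H2-DMa from 0.883 to 3.71 CPM and Cd74, the invariant chain, from 0.0814 to 0.880 CPM, whereas H2-Aa, H2-Ab1 and Ciita had 3 counts or fewer in either group. Inflammasome genes rose in 11 of 12, Casp1 from 16.1 to 129 CPM and Gsdmd from 78.1 to 246 CPM, and among cytokines Il18 rose from 1.03 to 34.8 CPM and Ccl20 from 1.10 to 31.2 CPM.

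Signalling lists showed large changes in single members rather than a common direction. In the BMP and TGF-beta list 9 of 20 rose and 6 fell (8 and 10 under library size). Bmp2 and Ihh, ligands of villus epithelium, rose from 3.44 to 47.4 CPM and from 0.998 to 29.3 CPM, and the BMP targets Id1 and Id3 from 6.74 to 31.2 CPM and from 4.23 to 20.1 CPM, while Bmp7 fell from 6.45 to 1.00 CPM. In the ERK and EGF list 11 of 23 rose and 9 fell (9 and 12 under library size). The receptor gene Erbb3 rose from 54.9 to 342 CPM, and Etv4 and Etv5, factors that report ERK output, fell from 75.9 to 20.7 CPM and from 46.3 to 19.1 CPM, as did Spry1 from 71.4 to 32.3 CPM. Of 14 ephrins and Eph receptors tested 4 rose and 8 fell. The ligand gene Efna1 rose from 9.11 to 145 CPM while the ligand gene Efna3 fell from 3.37 to 0.548 CPM, and the receptor gene Epha1 rose from 21.4 to 58.2 CPM while Ephb2, a crypt receptor, fell from 120.0 to 37.8 CPM. Notch ligands Dll1 and Dll4 rose from 2.36 to 12.9 CPM and from 0.345 to 3.42 CPM, and Jag2 fell from 67.4 to 18.4 CPM, in a pathway list of 13 with 6 higher and 6 lower (3 and 7 under library size). Among genes known as p53 targets 12 of 23 rose and 8 fell (9 and 11 under library size). Trp53inp1 rose from 0.821 to 17.4 CPM, Mdm2, a feedback target, did not pass, at 24.4 and 25.5 CPM, and Aen fell from 58.5 to 16.2 CPM.

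Hypoxia genes rose in 13 of 14 tested (11 under library size). Hif1a was the member that fell (log2FC −0.31, edgeR adjusted p = 0.01). Its call was lost without 7-day replicate 2 (edgeR adjusted p = 0.071) and under the ribosomal factors. Ndrg1 was at 105, 97.6 and 79.5 CPM in the controls and 4689, 4259 and 3438 CPM at 7 days (log2FC 5.46 ± 0.16, edgeR adjusted p = 8.7e-14), and Egln3, an oxygen-sensing hydroxylase, rose from 12.9 to 429.9 CPM. Car9, a carbonic anhydrase, rose from 8.31 to 87.03 CPM and Adm, adrenomedullin, from 0.806 to 18.5 CPM. Immediate early genes rose in 14 of 16 (10 under library size), Dusp1 from 9.20 to 53.8 CPM and Fos from 11.8 to 48.5 CPM.

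Genes of injured, stratified and fetal epithelium did not move as 1 programme. Among stratified genes 14 of 23 rose and 7 fell (10 and 9 under library size), and 1 of the 23 had fewer than 10 counts over the controls. Sprr2a2 and Sprr2a1, copies that encode envelope proteins also induced in bowel epithelium, were the 2 most abundant genes per kilobase of exon at 7 days. Sprr2a2 was at 1428, 1408 and 1232 CPM in the controls and 38280.5, 33719 and 29976 CPM at 7 days (log2FC 4.65 ± 0.13, edgeR adjusted p = 8.6e-14), with counts uncertain between copies. Krt6a fell from 7.55 to 0.381 CPM, Krt5 from 1.35 to 0.0905 CPM and Tgm1, transglutaminase, from 637 to 112 CPM. The keratin gene Krt17 rose from 0.826 to 1.28 CPM, a call lost without 7-day replicate 1 or control replicate 3 (edgeR adjusted p = 0.0883 to 0.173) and under 2 of the 6 scalings. Of fetal genes 10 of 18 rose and 7 fell (11 and 4 under the ribosomal factors), Clu, clusterin, rising from 117 to 817 CPM and Msln, mesothelin, from 413 to 1616 CPM, while Ly6a, Sca-1, fell from 559.9 to 201 CPM. YAP targets fell in 12 of 21 and rose in 8 (13 and 3 under library size), Ptpn14 from 98.6 to 28.7 CPM down and F3, tissue factor, up from 32.9 to 92.6 CPM. Vim, vimentin, fell from 17.8 to 0.988 CPM, and Cd44 from 209.6 to 40.7 CPM.

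Most markers of cells outside the epithelium were at low counts, and a few changed. Fibroblast genes summed to 30.7 to 37.7 CPM in controls and 24.5 to 36.0 CPM at 7 days, nearly all of it Acta2 (34.2 and 29.6 CPM), with Col3a1 and Lum at 0 counts. Of 3 fibroblast genes tested Pdgfrb rose, with 1 and 39 counts, a ratio of 45.02 with a 95% counting interval of 7.62 to 1823, Col1a2 fell from 0.568 to 0.114 CPM and Acta2 did not pass. Immune genes summed to 9.55 to 11.4 and 23.1 to 28.1 CPM, mostly Cd14 (from 9.06 to 20.95 CPM), which epithelium can express. All 3 immune genes tested of 12 listed rose, Cd14, Cd68 from 1.11 to 3.36 CPM and Csf1r with 2 and 73 counts, a ratio of 42.1 with a 95% counting interval of 11.3 to 354, while Ptprc, the pan-leukocyte marker, had 4 and 7 counts. Endothelial genes summed to 2.97 CPM or less and neural genes to 1.72 CPM or less, of which S100b rose from 0 counts to 0.544 CPM, at least 16.1-fold, and Tubb3 fell from 1.01 to 0.396 CPM. The part of other cell types in the results was not tested. Of 10 erythroid genes 2 were tested: Hbb-bs fell from 12.1 to 1.06 CPM and Hbb-bh1 from 8.96 to 1.00 CPM, beta-like globins, with Gata1 at 0 counts.

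A few genes went between silence and a clear level. With 0 counts in all controls and at least 5 CPM at 7 days there were 13, among them Slc13a1, Treh, Ugt2b5, Cyp2d12, Cyp2c40, Ugt2b38, Erich4, Otop3, Enpp7 and G6pc. Ugt2b5 was at least 817-fold higher and Cyp2d12 at least 399-fold, both of families with near-identical copies. Otop3, a proton channel, reached 9.87, 9.16 and 7.66 CPM. In reverse only Pla2g2a met the same rule. Per kilobase of exon, Eef1a1, a translation factor, led the 10 most abundant genes of the controls, at 5072 CPM per kb and 4437 at 7 days. Gsta1, Apoa1, Krt19, Krt8, Lgals2 and Gsta4 were among the 10 at 7 days; Apoa1, the apolipoprotein of HDL, stood at 1.74 CPM per kb in controls and 6395 at 7 days.

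Most genes called at 7 days also differed from their 2-day level. Between the 7-day and 2-day samples 9918 genes were called (79.1%), 4912 higher and 5006 lower. Of the 5080 genes above control at 7 days, 4635 were also above the 2-day level and 15 below it, and of the 5237 below control 4710 were also below the 2-day level and 29 above it. The 2 comparisons share the 7-day samples, so these counts are not independent. Axin2 and Lgr5 were already low at day 2, Axin2 at 5.10 CPM of a control mean of 70.5, and Lgr5 at 1.96 of 14.9. Some absorptive genes passed at day 2 and others did not, and no test between genes was run. Alpi and Slc7a9 were already above control (edgeR adjusted p = 1.2e-08 and 3e-08), at 6.99 and 4.91 CPM against control means of 1.201 and 0.789 and 7-day means of 1431 and 133. Sis and Slc5a1 did not pass at day 2 (edgeR adjusted p = 0.08 and 0.62), Sis standing at 0.603 CPM at day 2 and 893 at day 7 and Slc5a1 at 0.247 and 75.8. They had fewer counts at day 2, 57 and 23, than Alpi and Slc7a9, at 655 and 462. The cyclin gene Ccnb1 had means of 309, 283 and 63.2 CPM in controls, at day 2 and at day 7.

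**Figure D5:**
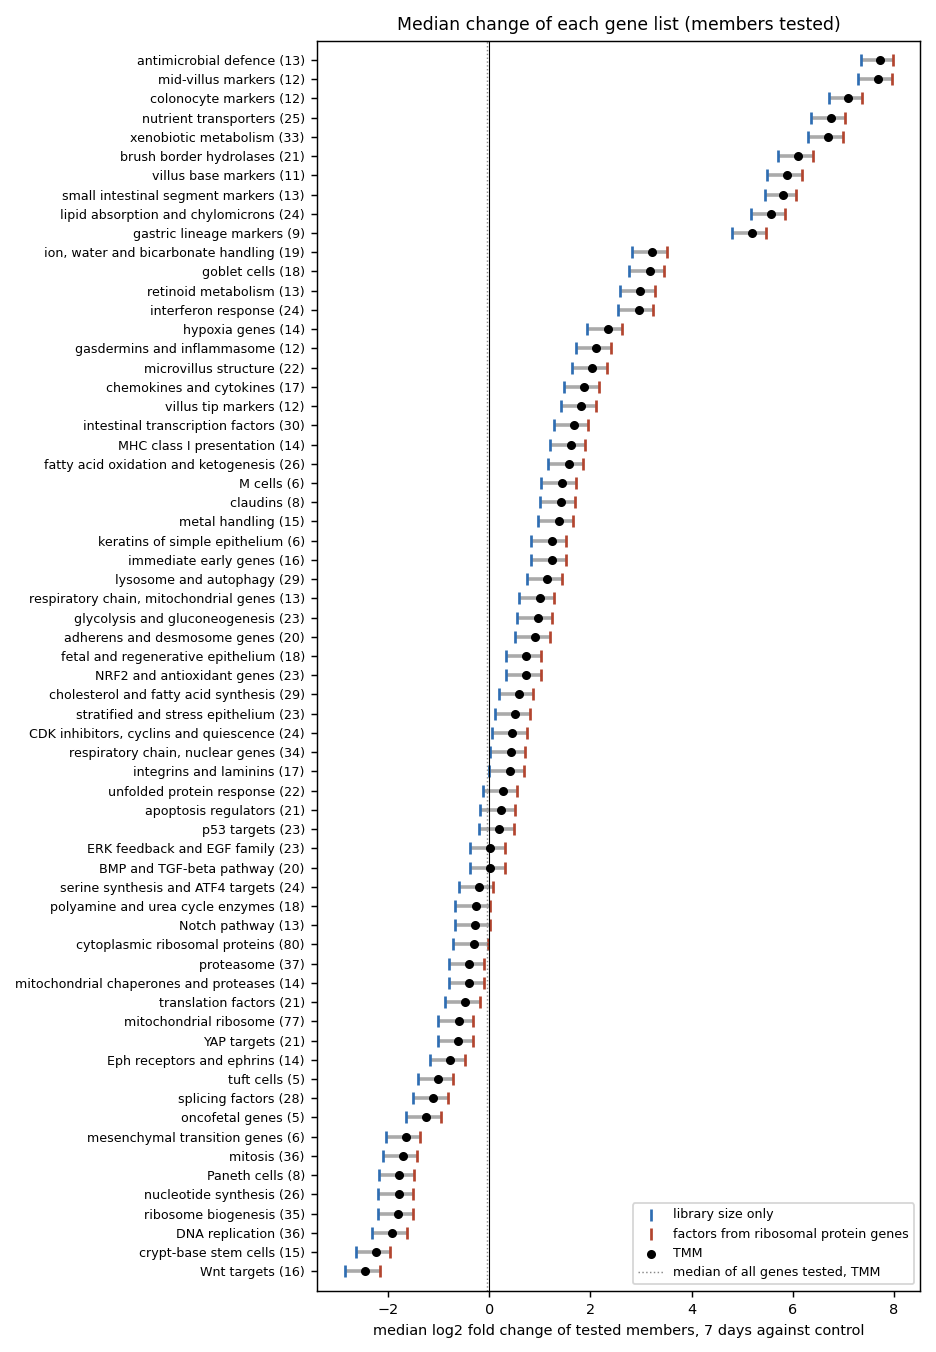
Median log2 fold change of the tested members of each list with at least 5 (numbers in brackets) at 7 days against control, under TMM (black), library size alone (blue) and factors from ribosomal protein genes (red). Lists from Wnt targets (−2.45) to splicing factors and from lysosome genes to antimicrobial genes (7.73) stay on their side of 0, while those between the unfolded protein response and the Notch pathway lie across it.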

How the data were processed

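The authors deposited 1 table of raw counts per gene for 9 samples of polyA RNA. Per the submitters' processing notes, STAR 2.7.0e, featureCounts and DESeq2 were used with the builds mm10 and GRCm38; its annotation and strand setting were not given in the sources used here. As the library kit named in the labels' protocols does not mark strand, reads of overlapping and antisense genes cannot be told apart, and near-identical copies may share or lose reads. Of 21253 gene IDs, 21236 matched GENCODE M21, which gave symbols and coordinates.

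From the counts, genes were filtered with filterByExpr, scaled by TMM and tested with edgeR 4.0.16 (glmQLFit and glmQLFTest, R 4.3.3) on all 9 samples with group as the only factor, two-sided, with Benjamini-Hochberg adjustment over all 12535 genes kept and a threshold of 0.05. The standard error was the size of the log2 fold change divided by the root of F. A lower bound sets a group with 0 counts at 3 counts over the group. With 1 to 3 counts in a group a ratio with a 95% exact interval is given; bounds and intervals cover counting error only.

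5 other scalings, other filters, DESeq2 1.42.0, limma-voom (limma 3.58.1), glmTreat, a fit to the compared groups only, a replicate block, removal of a GC trend and leaving out each library were tried.

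Named genes are a fixed set of markers, the 15 largest rises and falls (called, groups not overlapping, a mean of 5 CPM or more in 1 group, predicted genes left out), up to 4 leading and 2 opposing members of each of 71 gene lists, and the 10 most abundant genes per kilobase; some members were added for their role. The members and the lists were chosen with earlier results of these data known. A few items are not reported here.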

Additional observations from a re-analysis of the deposited data

How the results depend on the processing

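The counts of 5080 genes higher and 5237 lower stayed within 1.5 times under each alternative run except glmTreat against a log2 fold change of 1, which called 2354 higher and 1816 lower. Leaving out 1 library gave 4892 to 5140 higher and 4990 to 5279 lower. A replicate block gave 5242 higher and 5425 lower (7 days against 2 days, 5087 and 5221). Replicate numbers were not taken to pair samples, because the labels do not say what a number shares. The deviations of same-numbered control and 7-day samples correlated at 0.33, −0.005 and 0.48, and those of unlike-numbered samples at −0.44 to 0.17. Replicates 1 and 3 thus correlated more with their own number than with the others, and what they may share was not tested. Genes seen in 1 group numbered 27 at 7 days and 3 in controls at 1 CPM, and 3 and 0 at 20 CPM. The HNF4 letters stood in 1.51% of genes over 2-fold higher. Some list medians near 0 changed sign, and the cause was not tested. Under library size alone the medians were −0.13 for the unfolded protein response, −0.38 for the BMP list, −0.38 for the ERK list, −0.20 for p53 targets and −0.17 for apoptosis genes, and the log2 fold changes of Cdh1 and Krt18 were −0.19 and −0.057. Upper-quartile factors gave −0.081 for the BMP and −0.078 for the ERK list, and a fit to control and 7-day samples only gave −0.0042 and −0.0013. With 1 library left out the ERK median ran from −0.070 to 0.16 and was below 0 without 7-day replicate 2 (−0.013), control replicate 1 (−0.070) or control replicate 2 (−0.017). Under the ribosomal factors medians were 0.085 for the serine and ATF4 list, 0.015 for the polyamine list, 0.020 for the Notch list and 0.068 for fibroblast genes, with Cdx2 at 0.22. The Paneth median was 0.34 among genes with a mean of at least 5 CPM, a filter that leaves fewer genes and no enteroendocrine gene. Of the other list medians, 1163 values moved by less than the median standard error of the members and 226 by more without changing sign. Medians of lists with genes at 0 counts in 1 group depend on the prior count: with those at their bound the nutrient carriers stood at 5.62 in place of 6.75 and xenobiotic genes at 5.81 in place of 6.70. Precision is limited for genes with few counts and by 3 samples a group.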
